A study of Saccharomyces cerevisiae with 16 samples.

Results

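The late step of the ROF1 induction is the change between 45 and 90 min after β-estradiol was added to the cultures. It was read from 4 of the 16 arrays of the time course, those of 45 and 90 min in cultures A and B, and each 90 min array was set against the 45 min array of its own culture. The comparison covers every gene that could be tested, 6046 of the 6225 genes on the array, and no gene entered the test because of how it moved. The genes and gene groups described below are a narrower choice, made after results from these arrays had been seen. At both times the cells were the same haploid budding yeast strain of the s288c background, in which a Z3 promoter linked to URA3 stands in front of ROF1 in place of its own promoter, and in which Z3EV, the β-estradiol-dependent activator of that promoter, is made from the ACT1 promoter next to a functional HAP1 gene. Both groups had received β-estradiol at 1 µM and had been held at 30 °C under phosphate limitation (20 mg/L) at a dilution rate of 0.15 to 0.17 volumes per hour. The late step therefore compares a longer with a shorter induction and holds no uninduced sample. A strain without the ROF1 construct was not followed over time, so that changes due to the construct, to β-estradiol and to continued sampling of the culture cannot be told apart. The 2 cultures are the replicates.

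ROF1 encodes a putative transcription factor with a WOPR domain, a DNA-binding fold that is best known from regulators of cell morphology and cell type in fungi. When a regulator is switched on at a single moment, genes that it controls directly are usually the earliest to move, and transcripts that depend on the loss or gain of other regulators follow. Among the gene classes followed here, core histone genes are transcribed in S phase, HO is transcribed in mother cells late in G1, a-specific genes are made in cells of mating type a, and the permeases for amino acids, peptides and hexoses respond to the nutrients outside the cell.

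Each array carried RNA of the ROF1 strain in red (Cy5) and RNA of the reference strain DBY12001 in green (Cy3), and the value of a gene is the log2 ratio of red over green after both signals were floored at 50. The median red signal was 1203 and 1289 at 45 and 90 min in culture A, and 1322 and 1334 in culture B, and on these 4 arrays the red signal cleared the scanner's background test at 93.7% to 96.3% of spots. The 45 and 90 min arrays sat next to each other in the same row of a slide, at the same positions for both cultures, so that position and time cannot be told apart. Each culture had its own slide, so that culture and slide cannot be told apart either. From 45 to 90 min the reference signal changed with an SD across genes of 0.06 on the log2 scale in culture A and of 0.26 in culture B. The ratio changed with an SD of 0.17 in each. Across genes, which are not independent replicates, the steps of the cultures were correlated at r = 0.82. The mating type markers set the ROF1 strain apart from the reference at both times: the 7 a-specific genes stood between 3.72 and 6.90 on the log2 ratio scale at 45 min and between 3.10 and 6.82 at 90 min, while the 4 alpha-specific genes stood between -8.09 and -2.14 at 45 min and between -9.13 and -2.34 at 90 min. ROF1 itself no longer moved in one direction in the late step. At 45 min it stood at 3.99 (culture A) and 3.78 (culture B) on the log2 ratio scale, at 90 min at 3.77 and 4.24, and a step of 0.12 ± 0.48 (SD, n = 2) did not pass the test (limma, adjusted p 0.786). Its green signal was near or under the floor, at 35.6 to 80.7.

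The first question was how many genes changed in these last 45 min. The rule for a call was 2-fold, 1 on the log2 scale, together with an adjusted p under 0.05. By limma 7 genes were called lower (0.116% of the genes tested) and 3 higher (0.0496%), and each of these 10 moved in the same direction in both cultures. At 1.5-fold, 38 genes were lower (0.629%) and 16 higher (0.265%). Steps of any size passed an adjusted p of 0.05 in 506 genes that fell (8.37%) and 536 that rose (8.87%), and the median step of all tested genes was 0.00. The counts of list members given below are to be read beside these shares at any size. With the red signal alone, 22 genes were lower and 10 higher at any size. With any 1 of the 4 arrays left out, 204 to 313 were lower and 226 to 301 higher.

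**Figure D1:**
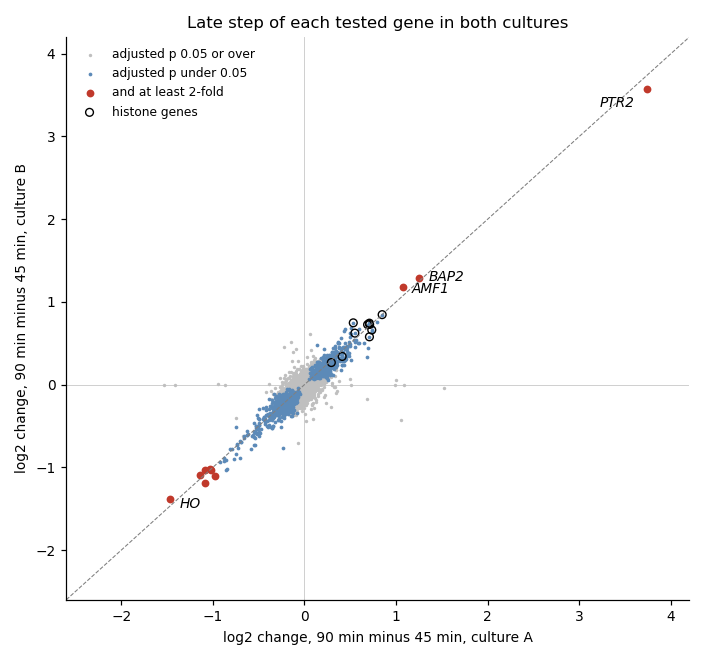
Each point is 1 of 6046 tested genes, with its log2 change between 45 and 90 min in culture A on the x axis and in culture B on the y axis; the dashed line marks equal steps. The 10 genes called at least 2-fold lie near the line, with PTR2 far from the others at 3.74 (culture A) and 3.58 (culture B), and the 10 histone genes (open circles) lie on the side of higher expression.

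The 3 genes called higher each encode a transporter. PTR2 (YKR093W), which encodes the transporter that imports di- and tripeptides, stood at log2 ratios of 0.90 in culture A and 0.93 in culture B at 45 min, and at 4.63 and 4.51 at 90 min. Its red signal went from 109 and 155 to 1607 and 1403. The 90 min values lay far above those of all other times in both cultures, and the step of 3.66 ± 0.11 (SD, n = 2) is a 12.6-fold rise (limma, adjusted p 3.69e-06). With a floor of 200 the step was 2.91, so that its size depends on the floor. PTR2 had been at 0.29 above its 0 min value at 30 min, and at 1.25 at 45 min. BAP2 (YBR068C), a permease for branched-chain amino acids, stood at -0.21 and -0.38 at 45 min and at 1.04 and 0.91 at 90 min, which took it from below to above the reference (1.27 ± 0.02, SD, n = 2; adjusted p 2.66e-07). AMF1 (YOR378W), which encodes a low-affinity ammonium transporter, stood at 1.35 and 1.33 at 45 min and at 2.43 and 2.52 at 90 min (1.13 ± 0.08, SD, n = 2; adjusted p 7.58e-05). Both BAP2 and AMF1 had already risen by 30 min, BAP2 by 0.63 and AMF1 by 0.81.

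Other transporter genes were followed through the gene lists, whose counts are set beside 8.87% higher and 8.37% lower of all tested genes. Of the 4 genes of the peptide import list, 3 were higher, with a median step of 0.56: besides PTR2 these were DAL5, a permease for allantoate and dipeptides (0.55, adjusted p 3.43e-06), and OPT1, an oligopeptide transporter (0.57, adjusted p 0.00426), while OPT2 was at 0.01. OPT1 is dim, with red signals of 82.4 to 140.5, and with a floor of 200 its step was 0.00. Of 18 amino acid permease genes, 3 were higher and 4 lower, and the median was 0.03. The proline permease PUT4 went from 0.71 and 0.84 to 1.20 and 1.19, and the methionine permease MUP1 rose by 0.34. Of 19 genes for the use of other nitrogen sources, 8 were higher and 1 lower, with a median of 0.11. They were led by PUT1, the proline oxidase (0.56), by DAL7 of the allantoin pathway (0.44), and by DAL80 (0.38), which encodes a repressor of nitrogen-use genes. With any 1 of the 4 arrays left out, 5 of the 19 were still higher.

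The largest fall was that of HO (YDL227C), the endonuclease that starts mating type switching. Its log2 ratio lay between -0.40 and 0.06 on all arrays from 0 to 45 min, was 0.06 and 0.01 at 45 min in cultures A and B, and was -1.41 and -1.37 at 90 min. The red signal went from 6263 and 5780 to 2603 and 2507, with a green signal that rose by 0.18 and 0.17. The step of -1.42 ± 0.06 (SD, n = 2; adjusted p 7.43e-07) is a 2.68-fold fall that came after 45 min. These are bulk RNA samples, in which fewer cells of a kind and less RNA per cell cannot be told apart.

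YDL218W, a gene of unknown function, was the other gene called lower that was not below its 0 min level by 30 min. It went from 1.53 and 1.62 at 0 min up to 1.89 and 2.16 at 20 min, was back at 1.39 and 1.60 at 45 min, and stood at 0.26 and 0.51 at 90 min (-1.12 ± 0.03, SD, n = 2; adjusted p 3.69e-06). In each culture the 90 min value lay below every earlier one.

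The remaining calls among the fallers were of genes with a negative change from 0 to 30 min, which for MF(ALPHA)1 was not past the threshold (adjusted p 0.241). AQY1, a water channel known from spores, went from -0.66 and -0.41 to -1.75 and -1.61 (-1.14 ± 0.07, SD, n = 2; adjusted p 5.03e-06), after it had fallen by 0.88 at 30 min. GAT2, a GATA-type zinc finger protein, went from -1.83 and -1.85 to -2.92 and -2.88 (-1.06 ± 0.04, SD, n = 2), and had fallen by 1.26 at 30 min. NCP1, the reductase that supplies electrons to the cytochrome P450 enzymes of sterol synthesis, went from -1.49 and -1.46 to -2.47 and -2.56 (-1.04 ± 0.09, SD, n = 2). In these genes no 90 min value overlapped a 45 min value, which steps of this size in 2 close cultures imply and which adds nothing to the call.

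TIP1, a mannoprotein of the cell wall, went from -0.92 and -0.99 to -1.95 and -2.01 (-1.03). TIP1 lies next to BAP2 on the chromosome, and these neighbours moved in opposite directions. MF(ALPHA)1, a gene for the alpha-factor precursor, was the last call, at -8.08 and -8.09 and then -9.10 and -9.13 (-1.03 ± 0.01, SD, n = 2; adjusted p 0.00121). Its red signal was 139 and 108 at 45 min and 73.5 and 65.4 at 90 min, near the floor, and with a floor of 200 its step was -0.21 (adjusted p 0.13). TIP1, NCP1, GAT2, AQY1, AMF1 and MF(ALPHA)1 lie close to the 2-fold limit, and each was under it in at least 1 alternative. With the red signal alone, TIP1, NCP1, GAT2 and MF(ALPHA)1 were not past an adjusted p of 0.05.

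**Figure D2:**
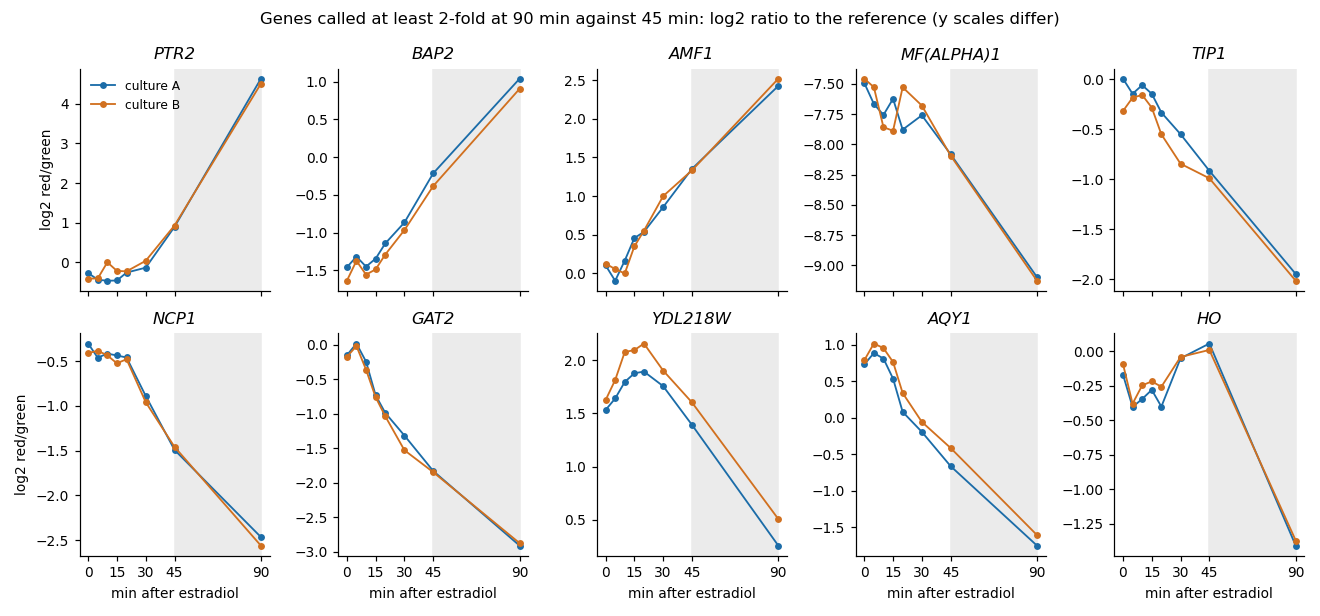
Log2 ratio of red over green (y axis, scales differ) against time after β-estradiol in minutes (x axis) for the 10 genes called at least 2-fold in the late step, which is shaded; each line is 1 culture. HO stays between -0.40 and 0.06 up to 45 min and ends near -1.4, PTR2 ends above 4.5 in both cultures, and BAP2, AMF1, GAT2 and AQY1 continue a change that is visible by 30 min.

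The genes of the late step were then sorted by their change from 0 to 30 min, since the 0 and 30 min arrays are used at neither end of the late step. A gene went on if it had changed by 1.5-fold or more at 30 min in the same direction, with an adjusted p under 0.05. It turned back if it had changed that much in the other direction, and started late otherwise. Changes that came and went before 30 min do not enter this rule, so a gene sorted as started late may have moved earlier. At 30 min 38 of all tested genes were lower (0.629%) and 17 higher (0.281%) by this rule, and by 2-fold 16 were lower (0.265%) and 4 higher (0.0662%). Of the 10 genes called in the late step, 4 went on (GAT2 and AQY1 lower, BAP2 and AMF1 higher), 6 started late and 0 turned back. NCP1 and TIP1 count among the 6 although they were at -0.57 and -0.54 at 30 min, just short of the limit, and sorting by 45 min instead gave 8 that went on and 2, HO and YDL218W, that started late. At 1.5-fold, 14 genes went on (12 lower, 2 higher), 39 started late (25 lower, 14 higher) and 1 turned back.

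**Figure D3:**
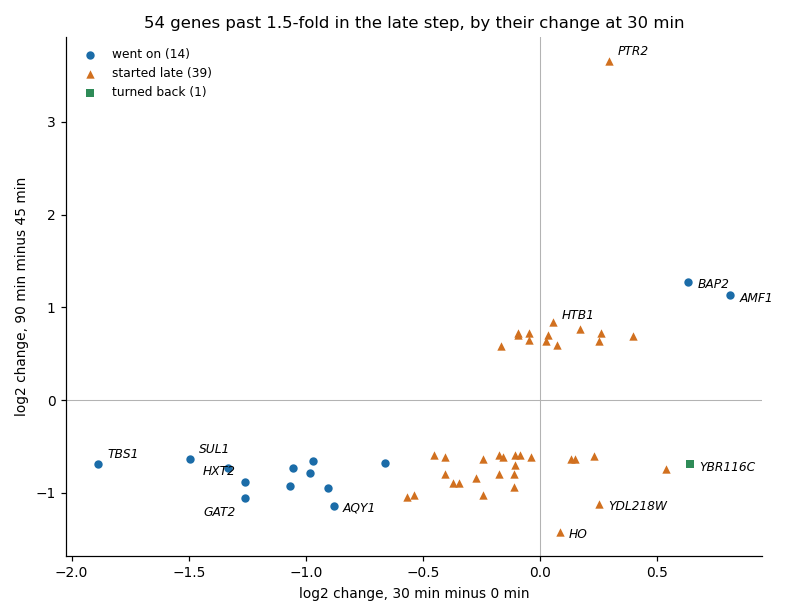
Log2 change from 0 to 30 min (x axis) and from 45 to 90 min (y axis) of the 54 genes past 1.5-fold and an adjusted p of 0.05 in the late step. The 14 that went on are circles, the 39 that started late triangles and the 1 that turned back, YBR116C, a square; HTB1 and the other core histone genes sit near 0 on the x axis.

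The histone genes rose late, and all in one direction. They encode the proteins around which DNA is wound, and in yeast each core histone has a pair of gene copies, arranged as neighbouring pairs. All 10 tested histone genes were higher at an adjusted p under 0.05 (limma), with a median step of 0.67 against 0.00 for all tested genes, and 8 of the 16 genes past 1.5-fold were the core histone genes HTA1, HTA2, HTB1, HTB2, HHT1, HHT2, HHF1 and HHF2. HTB1 stood at -0.16 and -0.17 at 45 min, and at 0.69 and 0.68 at 90 min (0.85, adjusted p 4.96e-07). HTA2 went from -0.15 and -0.19 to 0.56 in both cultures (0.73). HHT1 went from -0.06 and 0.00 to 0.66 and 0.73 (0.72).

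Before 45 min these genes hardly moved: over all 10 genes and all times up to 45 min, the change from 0 min stayed between -0.22 and 0.16 (culture A) and between -0.20 and 0.19 (culture B). The core histone genes rose by 0.59 to 0.85 in the late step. The linker histone gene HHO1 rose by 0.38 and the H2A variant gene HTZ1 by 0.28. Since gene copies of one histone are nearly alike in sequence, an array probe may read both, and the 10 values are not independent. All 10 stayed past the threshold under normexp, under a floor of 200, without the block and with any 1 array left out. With the red signal alone 10 of 10 were positive and 1 was past it, with a median of 0.49. In culture B the red signal of HTB1 rose by 0.19 and its green signal fell by 0.67, so that most of its step there lay in the reference signal. For HTA2 red rose by 0.70 and 0.69, with green at -0.01 and -0.04.

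**Figure D4:**
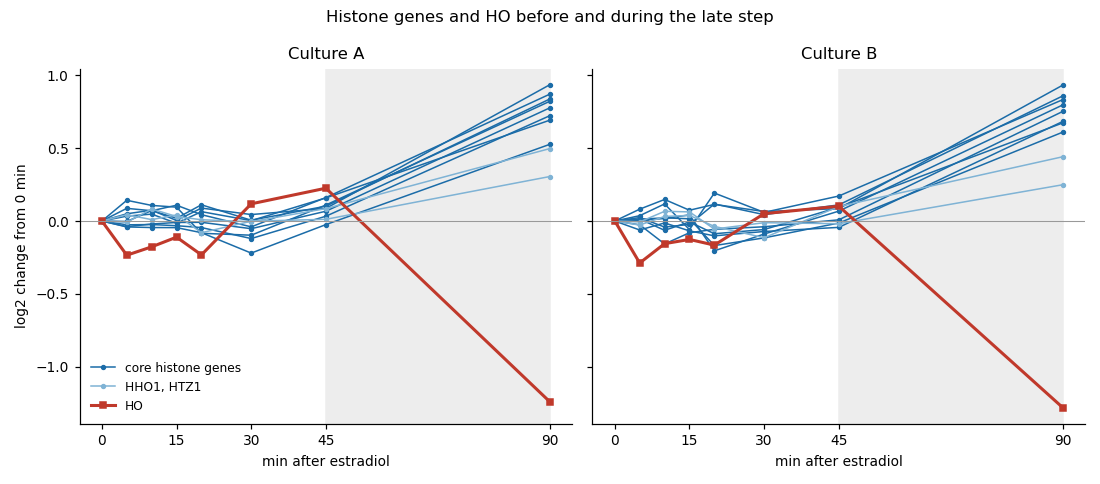
Log2 change from the 0 min array of the same culture (y axis) against time in minutes (x axis) for the 10 histone genes and HO, with the late step shaded. Up to 45 min every histone gene stays within -0.22 and 0.19 of its 0 min value, and after it all 10 rise while HO falls in both cultures.

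Other genes of the cell cycle moved less. Of 14 listed genes induced at the transition from G1 to S phase, 14 had a positive step, as had 2940 of all 6046 tested genes. The largest steps were those of MCD1, a cohesin subunit (0.32), RFA1 (0.21) and SWE1 (0.19). At 45 min against 0 min all 14 had already been higher (limma, adjusted p under 0.05), with a median change of 0.34. In the late step the median of the 14 was 0.12, and 5 of them were past the threshold, beside 8.87% of all tested genes that were higher. With 1 array left out, 1 to 3 of them were past it, and 1 without either the 45 min array of culture B or the 90 min array of culture A. The G1 cyclin genes CLN1 (0.10) and CLN2 (0.12) were not past it. Of 10 genes of G2 and M phase, CLB1 (0.26), ALK1 (0.21) and SWI5 (0.19) were higher and KIN3 (-0.17) was lower. Of 11 genes for the separation of daughter cells, AMN1, an antagonist of mitotic exit, and DSE4, a glucanase, were lower. AMN1 went from -0.13 and -0.10 to -0.64 and -0.62 (-0.51), and DSE4 from -1.21 and -1.18 to -1.69 and -1.71 (-0.50). The daughter-specific repressor gene ASH1 was at -0.15 and not past the threshold. Among 11 genes of ribonucleotide reductase and the DNA damage response, 5 were higher, with DUN1, a checkpoint kinase, at 0.34. The 1 that was lower was RNR1 (-0.22), which is not a member of the list of 14 G1 to S genes above.

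Part of the mating genes fell. Of the 7 a-specific genes 5 were lower and 0 higher, with a median of -0.59. STE2, the receptor for alpha-factor, went from 6.20 in both cultures at 45 min to 5.50 and 5.31 (-0.79 ± 0.13, SD, n = 2; adjusted p 0.000367), and had been at 6.68 and 6.51 at 0 min. AGA2, the binding subunit of a-agglutinin, fell by 0.83 and BAR1, the protease that degrades alpha-factor, by 0.64, both with an adjusted p of 0.0284. The a-factor exporter STE6 (-0.59) and ASG7 (-0.36) were lower as well. The a-factor genes MFA1 (-0.22) and MFA2 (-0.09) were not past the threshold. In the reference strain the green signal of AGA2 was under the floor on all 4 arrays, so that the change of its ratio is that of its red signal, which went from 800 and 966 to 468 and 519. With any 1 of the 4 arrays left out, 3 of the 7 were lower, and with the red signal alone 1 was.

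Of 11 genes of the pheromone response, 7 were lower and 1 higher, with a median of -0.31. AGA1, which anchors a-agglutinin to the cell wall, went from 0.29 and 0.19 to -0.56 and -0.83 (-0.93 ± 0.12, SD, n = 2; adjusted p 0.000743), and FUS1, a protein of cell fusion, from 0.59 and 0.72 to -0.16 and -0.11 (-0.79 ± 0.06, SD, n = 2; adjusted p 0.000242). Both had been above the reference at 45 min and were below it at 90 min. SST2 (-0.42), FAR1 (-0.38) and GPA1 (-0.31), which act in pheromone signalling, were lower too. The exception was FIG1, at 0.51, whose red signal of 55.9 to 94.6 lies close to the floor; it was at 0.00 with a floor of 200. TEC1, a factor that controls filamentation genes and acts beside the pheromone pathway, went from 0.01 and -0.01 to -0.43 and -0.44 (-0.44, adjusted p 0.000115).

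Most regulators that fell early in the induction fell further in the late step. These are 11 factor genes that the study picked for their fall on these arrays, so that their direction is not independent evidence. In the late step 9 of the 11 were lower and 0 higher, with a median of -0.32, after a median of -1.15 at 45 min against 0 min. GAT2 (-1.06), TBS1 (-0.69) and MIT1 (-0.53), the paralog of ROF1, fell furthest. With a floor of 200 the step of TBS1 was -0.12 (adjusted p 0.0568), and its red signal was 131 to 210. YAP6, at -2.50 and -2.48 at 45 min and -2.63 and -2.62 at 90 min, and GCN4 were the 2 that were not past the threshold, at -0.14 and -0.16. With the red signal alone, limma left 0 of the 11 past the threshold, 6 at an unadjusted p under 0.05, all of these lower. Cup9, another of the 11, is known as the repressor of PTR2. The CUP9 transcript was at -0.44 and -0.50 at 45 min and at -0.59 and -0.68 at 90 min (-0.17, limma, adjusted p 0.0267). Whether this fall bears on the rise of PTR2 was not tested. Of 5 water and glycerol channel genes, a list that also comes from the study's results on these arrays, 4 were lower, with AQY1 first. AQY2 went from -1.23 and -1.12 to -1.73 and -1.74 (-0.56), and YLL053C, which overlaps it, changed by -0.56 as well. AQY3 fell by 0.26, and the glycerol channel gene FPS1 was at 0.07.

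Hexose transporter genes went both ways. HXT2 and HXT4, transporters used when glucose is scarce, continued to fall: HXT2 went from -2.29 and -2.40 to -3.17 and -3.29 (-0.88 ± 0.01, SD, n = 2), and HXT4 from -1.96 and -1.84 to -2.88 and -2.77 (-0.93 ± 0.01, SD, n = 2). HXT1, the low-affinity transporter used when glucose is plentiful, stood at 0.68 and 0.69 at 45 min and rose by 0.46 and 0.41 (mean 0.43, adjusted p 0.00257). Of the 12 members tested, 5 were lower and 1 higher, beside 8.37% lower and 8.87% higher of all tested genes. HXT6 (-0.24) and HXT7 (-0.13) are nearly identical in sequence, so that a probe may read both.

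Among metabolic genes the changes were small or were those of single genes. In sterol synthesis, 4 of 25 genes were lower and 1 higher with a median of 0.02, and NCP1 and ERG28 (-1.31 and -1.38 at 45 min, -2.10 and -2.16 at 90 min) stood apart. Of 30 genes of the respiratory chain 11 were lower, with ATP1 at -0.36, and 1 was higher. The exception was CYC7, the cytochrome c form made when oxygen is low, which went from 0.27 and 0.41 to 1.05 and 1.17 (0.77 ± 0.02, SD, n = 2; adjusted p 4.09e-05). CYC7 had already stood at 0.86 and 0.92 at 5 min and come down to 0.09 and 0.32 at 30 min, so that the late step was its second rise. Of other genes known from low oxygen, TIR3 was higher (0.63), and HEM13 (-0.52) and TIR2 (-0.39) were lower. In the TCA cycle 6 of 14 were lower, and in glycolysis 4 of 19, with HXK2 at -0.53. Over all tested genes, 8.37% were lower and 8.87% higher. The list counts need all 4 arrays: with any 1 array left out, fewer of the respiratory chain and TCA cycle genes were lower. Fewer of all tested genes were lower too.

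Of 137 genes of ribosomal proteins 17 were lower and 0 higher by limma, with a median of -0.08, beside 8.37% of all tested genes that were lower. When any 1 array was left out, between 2 and 7 of the 137 were lower, beside 204 to 313 of all 6046. Of 31 ribosome biogenesis genes 0 were past the threshold by limma and 6 were lower at an unadjusted p under 0.05, with a median of -0.05. Of 31 proteasome genes 5 were higher, with a median of 0.07, beside 8.87% of all tested genes that were higher. In the phosphate regulon 4 of 16 genes were lower and 2 higher, with a median of 0.07. The lower ones were the repressible acid phosphatase genes PHO12 (-0.73), PHO11 (-0.50) and PHO5 (-0.44) and the alkaline phosphatase gene PHO8 (-0.15), and the higher ones were PHM6 (0.20) and PHM8 (0.19). The high-affinity phosphate transporter PHO84 was at 0.06 and not past the threshold. Acid phosphatase genes resemble each other in sequence, so that their probes may share signal. Among cell wall genes PST1 started late, from 0.05 and 0.09 to -0.60 and -0.53 (-0.64), and the mannoprotein gene CWP1 rose from -0.50 in both cultures to 0.04 in both (0.54).

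**Figure D5:**
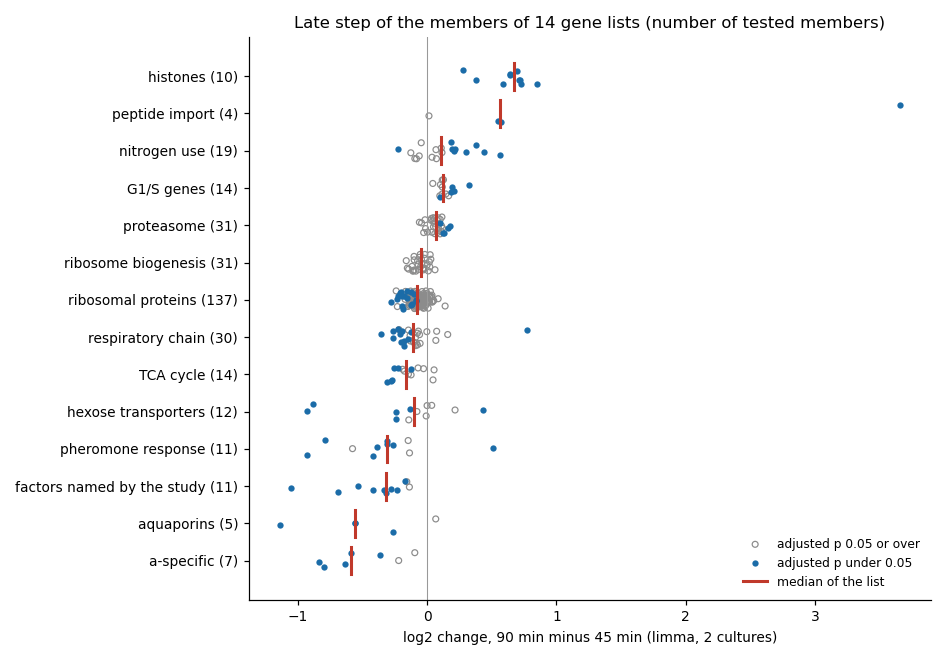
Log2 change from 45 to 90 min (x axis) of each tested member of 14 gene lists (rows; the number of members is given); filled points passed an adjusted p of 0.05 and red bars mark each list's median. The histone list lies wholly above 0 with a median of 0.67, and the a-specific list wholly below 0 with a median of -0.59.

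Few genes turned back by the rule set at 30 min, which does not see a rise that had passed by then. At any size of the late step, 4 genes that had risen by at least 1.5-fold at 30 min were lower in the late step, and 0 went the other way. They were YBR116C (0.64 at 30 min against 0 min, then -0.69), ALD3, an aldehyde dehydrogenase of the stress response (0.61, then -0.56), SIP18, a protein of desiccation tolerance (0.62, then -0.46), and RTC3 (0.62, then -0.28). YBR116C and TKL2, a transketolase gene whose systematic name is the next one, YBR117C, moved alike. TKL2 was at 0.54 at 30 min, short of the limit, and fell by 0.74. In RefSeq order TKL2 adjoins LYS2 and TEF2, and YBR116C is not placed beside it. Whether the YBR116C probe reads the TKL2 transcript was not tested, so they may not be independent. At 90 min YBR116C and ALD3 stood below their 0 min values, at -0.36 and -0.29, while RTC3 was still above it at 0.37. Beside 8.37% lower and 8.87% higher of all tested genes, 7 of 24 genes induced by environmental stress were lower in the late step. The 1 that was higher was HSP12, and the median of the 24 genes was -0.09. HXK1 had the largest step of these, from -0.33 and -0.15 to -0.96 and -0.76. It is sorted as started late, although it had gone from -0.20 and -0.08 at 0 min to 0.97 and 1.01 at 5 min.

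Lastly, the late step was set against the equally long window from 0 to 45 min. The 45 min arrays enter both windows, with opposite signs, so that an error in them moves the difference by more than it moves either window. At 45 min against 0 min, 30 genes were lower (0.496%) and 8 higher (0.132%) by 2-fold, and at 90 min against 0 min 60 were lower (0.992%) and 23 higher (0.380%). The difference between the windows was past an adjusted p of 0.05 and 1 on the log2 scale for 8 genes in the lower direction (0.132%) and for 14 in the higher (0.232%). HO (-1.59, adjusted p 2.33e-05) and YDL218W (-1.04, adjusted p 0.000274) fell mostly in the second window. PTR2 rose by 1.25 in the first and 3.66 in the second, a difference of 2.41 (adjusted p 0.00139). For BAP2 the windows were 1.25 and 1.27, with a difference of 0.02 ± 0.05 (SE) that was not past the threshold, and neither were those of AQY1 (-1.29 and -1.14), NCP1 (-1.12 and -1.04) and AMF1 (1.23 and 1.13). At any size 96 genes were lower (1.59%) and 99 higher (1.64%) in the second window than in the first, and all 10 histone genes were among the latter. So were 7 of the 11 factor genes, whose fall was smaller in the second window, led by YAP6, which fell by 2.15 in the first and stood at -0.14 in the second.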

How the data were processed

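The arrays were two-colour Agilent arrays with the ROF1 strain in Cy5 and the reference strain in Cy3; dyes were not swapped. Per the file headers, Feature Extraction gave background-subtracted and dye-normalized processed intensity values and raw median intensity values for each spot. The authors also deposited their log2 values for all arrays in 1 table, which hold the ratio of Cy5 to Cy3 with each processed intensity raised to at least 50; 0 spots differed by over 1e-04 from the ratio recomputed from the scanner files. Outlier spots, 3 to 183 per array, were left out, and 0 were saturated; the spots of a probe were averaged. Genes were tested if both spots were well above background in red on at least 2 of 16 arrays. For 29 genes with several probes the brightest was taken. Gene names came from the array, and 5737 genes matched RefSeq R64, used for names and neighbours. A gene under the floor in both colours has a ratio of 0; 351 tested genes had red under it on all 4 late arrays.

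The 16 arrays entered a single linear model (limma 3.58.1 with lmFit and eBayes, R 4.3.3) that held a term for each time and a block for the culture (7 residual degrees of freedom, prior degrees of freedom 0.89), with Benjamini-Hochberg adjustment over 6046 genes per contrast. The fit left no residual spread for 264 genes. The number of arrays limits the precision. Since the block takes out the constant difference between these 2 cultures, the p-values measure how far they depart from a common course. That departure is pooled over all 16 arrays and moderated by the prior. The study describes the cultures as separate time courses. The same culture was sampled at each time, which is where the pairing comes from: across genes, the difference between the cultures at 45 min correlated with that at 90 min at r = 0.40. Gene lists (41) are described by counts and medians only. The lists, the comparison and the rule for named genes were chosen with earlier results of these data known. The rule names the 15 largest rises and falls, ROF1, URA3, the 11 factors of the study, and the 3 largest changes in each list past an adjusted p of 0.05. It also names genes that turned back with a late step of 2-fold, of which there were 0. Other list members, the genes that turned back with a smaller step, TKL2 and the genes named in the notes on single arrays were chosen with their values in view. Alternatives were normexp and loess on raw intensities, the table as deposited, a floor of 200 or none, median centring, stricter and looser filters on dim probes, a trended prior variance, no culture block, red signals without green, the 4 arrays alone, other minimum changes and each array left out. A motif count in promoters was not made, since no sequence was used here. Figures were drawn with matplotlib 3.10.9.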

Additional observations from a re-analysis of the deposited data

Results flagged for a closer look

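For 12 genes picked by the naming rule, the second 45 min differed from the first by at least 1 on the log2 scale. This was in the test of the difference itself (limma, adjusted p under 0.05). TKL2 (-1.04, adjusted p 0.00544) and YBR116C (-1.02, adjusted p 0.0416), named above outside that rule, met the same limits. The 45 min arrays enter both windows, and the cause of the differences was not tested. The second-minus-first difference was -3.77 for ROF1 and -3.26 for URA3, both of which rose in the first window and had no step past the threshold in the second. It was -1.22 for RNR2, the small subunit of ribonucleotide reductase, which rose by 1.51 in the first window and 0.28 in the second. HO (-1.59) and YDL218W (-1.04) changed by -1.42 and -1.12 in the second window, against 0.16 and -0.08 in the first.

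The difference was positive, with a smaller fall in the second window, for CIN5 (1.05), MIT1 (1.47), SUL1 (1.53), SFG1 (1.85), TBS1 (1.85) and YAP6 (2.01). SUL1, a sulfate permease gene, had red signals of 115 and 92.5 at 45 min and 71.4 and 41.5 at 90 min, so that the floor limits how far its ratio can fall. YAP6 had red signals of 106 and 83.7 at 45 min and 104 and 96.1 at 90 min. With a floor of 200 the second-window step of TBS1 was -0.12 in place of -0.69, and that of CIN5 -0.08 in place of -0.23 (adjusted p 0.617), so that their size depends on the floor. For PTR2 the difference was 2.41, with a rise that grew.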

How the results depend on the processing

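The direction of all 10 calls was kept under all settings, and 10 of the 10 were called under the deposited table, no floor, other filters, median centring, no replicate block (10 genes called), a trend in the prior, and with culture A's 45 min array left out. Normexp and loess called 4 lower, of which TIP1, GAT2, AQY1 and MF(ALPHA)1 were no longer part, and 5 of the 10 were kept; the red channel alone called 3 lower, and 6 of the 10 were kept. A floor of 200 kept 8, without AMF1 and MF(ALPHA)1. With the 4 late arrays alone, 1 residual degree of freedom was left and limma called 0 lower and 0 higher; at an unadjusted p under 0.05 it gave the same counts as the full fit, 7 and 3. With 1 of the 4 arrays left out, 6 to 8 genes were lower and 3 to 7 higher. The 7 arose without the 90 min array of culture B, which added YBL044W, ICS2, YDL023C and SPR28. Without the 45 min array of culture B, TIP1 and NCP1 were lost, without the 90 min array of culture A TIP1, and without that of B MF(ALPHA)1.

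Minimum changes of 1.5-fold and none gave 38 and 506 genes lower and 16 and 536 higher in the late step, 38 and 359 lower and 17 and 334 higher at 30 min, 67 and 481 lower and 23 and 531 higher at 45 min, and 147 and 1208 lower and 101 and 1250 higher at 90 min. At 45 min 4 genes were higher under normexp and 5 with a floor of 200. For the difference between the windows they gave 26 and 96 lower and 38 and 99 higher; the count lower was 3 with the red channel alone and 5 without the replicate block, and the count higher was 8 under normexp, 9 with a floor of 200 and 6 with the red channel alone, with 7 to 10 lower and 10 to 18 higher when 1 array was left out. Genes that went on numbered 0 under normexp, 2 with a floor of 200 or the red channel alone, 14 at 1.5-fold, 39 at any size, 8 when sorted at 45 min, and 4 to 5 with 1 array left out. Those that started late numbered 39, 999 and 2 under the last named sizes and sorting, and 6 to 8 with 1 array left out. Those that turned back numbered 1 at 1.5-fold, 4 at any size and 0 to 1 with 1 array left out.

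Among named genes past the threshold, 2 changed sign with a floor of 200 (ACA1, 0.10, and SUL1, 0.087) and 2 with the red channel alone (RNR2, -0.089, and SWI5, -0.098). Of those not past it, GCN4 (0.35), YAP6 (0.05) and ROF1 (-0.27) changed sign with the red channel alone, ROF1 also with normexp (-0.04), a floor of 200 (-0.24), without either array of culture B (-0.01 and -0.14) and in culture A alone (-0.22), and URA3 in culture B alone (0.02). With the red channel alone 100 of the 124 kept their sign and lost the threshold, and without single arrays 21 to 35 did. The cause was not tested. Signals near the floor limit the size of a change, as for MF(ALPHA)1, OPT1, FIG1, SUL1, ACA1, TBS1 and CIN5. The step of PTR2 was 2.91 with a floor of 200 in place of 3.66.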

Other observations

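In 5 genes the late step was at least 1 on the log2 scale in culture A and under 0.5 in culture B, and in 0 genes the other way. The steps in cultures A and B were 1.05 and -0.43 for ICS2, -1.54 and 0.00 for SRL4, 1.09 and 0.00 for YBL044W, -1.41 and 0.00 for YCL001W-B, and 1.53 and -0.05 for YDL023C. For SRL4 and YCL001W-B the culture B step was exactly 0, the value that a gene under the floor in both colours gives. None of the 5 genes was past the threshold (limma, adjusted p from 0.182 to 0.634). These genes and limits were chosen after the values were seen.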
